A study of Mus musculus with 143 samples.

Results

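Loss of the ribonuclease DIS3 was examined in fully grown mouse oocytes that had not yet resumed meiosis. The material was 23 single oocytes of the 143 samples in the series, chosen by their labels: 8 control oocytes and 15 oocytes of the conditional knockout of Dis3 (genotype label dis3cKO, written Dis3 cKO here), all at the germinal vesicle (GV) stage, when the large prophase nucleus is still visible. Each oocyte was dissected from an ovary and kept in M2 medium, and its poly(A) RNA was captured on oligo-dT beads after a diluted mix of 92 synthetic ERCC RNAs had been added to the lysate. The mutant mice were made with CRISPR/Cas9, per the labels. The labels do not name the Cre driver that deletes Dis3, the deleted exons, the strain, the age, or which oocytes came from the same female. The titles of the 15 knockout oocytes run from 1 to 16, and no sample used here has the number 9. Because several oocytes may share a female, the p-values below measure the spread between single oocytes, and litter or female effects cannot be told apart from it.

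DIS3 is a catalytic subunit of the RNA exosome, a ring of subunits that threads RNA from its 3′ end into a ribonuclease. In the nucleus the exosome removes short-lived transcripts, among them the upstream antisense RNAs that arise at most active promoters when RNA polymerase II starts in both directions, and it trims the 3′ ends of structured RNAs. A fully grown GV oocyte makes little new RNA and lives on messages stored during growth.

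The libraries held between 4843964 and 10310183 gene counts, and each of 12 oocyte markers had counts in all of them. The growth factor Gdf9 lay between 3443 and 4516 CPM (counts scaled to library size with TMM factors) in controls and between 1730 and 4588 in Dis3 cKO oocytes. Ddx4 and Figla were at lower levels, 17.5 to 114 and 26.9 to 82.3 CPM of gene counts over both groups. Dis3 cKO oocytes 6 and 8 stood apart, with correlations of 0.79 to 0.872 with the other 13 knockout libraries on the log2 scale (7162 genes), against 0.892 to 0.979 among those 13. Control 1 stood apart more mildly, with correlations of 0.896 to 0.939 with the other controls, which reached 0.936 to 0.98 among themselves. RNA of granulosa cells, the follicle cells that surround the oocyte, varied between libraries: the summed level of 19 granulosa or cumulus markers (the list without Cyp19a1, Nr5a2 and Kitl, which were left out after their values were seen) ranged from 4.07 to 175.5 CPM of gene counts in controls and from 12.5 to 246.9 CPM in Dis3 cKO oocytes. Tnfaip6 and Ptx3, which cumulus cells make at ovulation, were at 0 in all 23 libraries. The counts over all genes, lncRNAs and the lists described at most length are therefore also given without Dis3 cKO 6 and 8, and for the other lists the counts that moved by over 1.5 times without them are given together after the plot of the gene lists.

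Dis3 itself (ENSMUSG00000033166, GRCm38 chr14:99076634-99099780, overlapping Pibf1) was measured first. Its level lay between 10.3 and 18.7 CPM (median 13.4) in the 8 controls and between 0.727 and 6.14 CPM (median 2.98) in the 15 Dis3 cKO oocytes, so the groups did not overlap. The fitted log2 difference was -2.19 (SE 0.26, adjusted p = 5.27e-07, edgeR's quasi-likelihood F test, adjusted by Benjamini-Hochberg over 15099 genes, as for all adjusted p-values of single genes here). Below, the size of a rise or fall of a gene is its log2 difference. Counts were taken over the whole gene, so reads from undeleted exons would remain in these values. Exosc10, the other nuclear exosome ribonuclease, was at 106 ± 24 CPM (SD, n = 8) and 88.2 ± 12.2 CPM (SD, n = 15), a log2 difference of -0.27 that missed the threshold when scaled within libraries (adjusted p = 0.0995). It passed when scaled to ERCC counts, at -0.51 (adjusted p = 0.0371). Dis3l, the cytoplasmic paralog of Dis3, had a small decrease of -0.34 (adjusted p = 0.0274) that was lost in 6 of 23 fits with 1 library left out, control 1 among them. Dis3l2, which degrades uridylated RNA without the exosome, had a log2 difference of 0.10 (SE 0.20, adjusted p = 0.747).

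The amount of poly(A) RNA per oocyte was read as gene counts per ERCC count. In controls this ratio ranged from 107.6 to 161.8 with a median of 137.7, and in Dis3 cKO oocytes from 77.5 to 207.9 with a median of 104.1. The groups overlapped, and the highest value of all belonged to Dis3 cKO 16. The mean log2 ratio was lower in the knockout by a difference of -0.38 (SE 0.11, two-sided exact permutation test over 490314 regroupings, p = 0.00745). Fewer captured RNA molecules and a different volume of spike-in cannot be told apart in this ratio.

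That ratio sets how the direction of single genes is read. With counts scaled within each library, 4119 of 15099 genes tested (27.3%) passed an adjusted p of 0.05, 2242 of them higher (14.8% of genes tested) and 1877 lower (12.4%) in Dis3 cKO oocytes. With counts scaled to the ERCC RNAs, 4350 genes (28.8%) passed, 1102 of them higher (7.3%) and 3248 lower (21.5%). The median log2 difference of all genes was 0.01 with the first scaling and -0.26 with the second. Of the 2242 genes called higher within libraries, 1102 stayed higher per ERCC count, 1140 lost the call and 0 were called lower. Of the 1877 genes called lower within libraries, 1870 were also lower per ERCC count, and a further 1378 genes were called lower only with ERCC scaling. Without Dis3 cKO 16, the library with the highest ratio, the ERCC-scaled counts became 1086 higher and 5650 lower genes. Without Dis3 cKO 6 and 8 they were 1077 higher and 3312 lower, and the counts scaled within libraries were 2500 higher and 2266 lower.

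**Figure D1:**
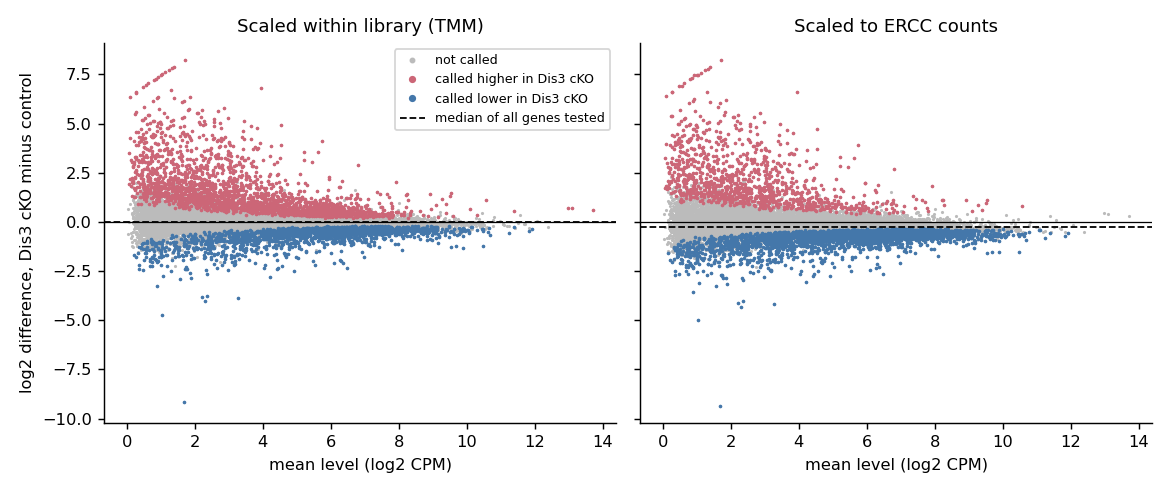
Log2 difference between 15 Dis3 cKO and 8 control oocytes for each of 15099 genes (y axis) against mean level (x axis, log2 CPM), with counts scaled within libraries (left) and to ERCC counts (right). Points in colour passed an adjusted p of 0.05, the dashed line is the median of all genes (0.01 and -0.26), and the oblique row of points at the upper left of each panel is made of genes with almost no control counts, whose fitted value depends on the model's prior count.

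With scaling within libraries, increases reached further than decreases. The libraries of the groups did not overlap in 530 genes (3.51% of those tested), with every knockout oocyte above every control in 334 (2.21%) and below in 196 (1.3%). With ERCC scaling 161 (1.07%) lay above and 145 (0.96%) below. Among genes called with scaling within libraries, 1254 rose and 360 fell by more than 1 on the log2 scale, and 546 rose and 47 fell by more than 2. With ERCC scaling these counts were closer, 901 against 754 beyond 1 and 458 against 104 beyond 2. The median log2 difference was 1.15 over called increases and -0.56 over called decreases. These medians are from a filter that a gene silent in controls can pass through its level in the knockout alone: 16 genes tested had no count in any control, all of them called higher, against 1 gene with no count in any Dis3 cKO oocyte. Protein-coding genes split toward decreases with level. In the lowest of 5 groups of equal size by mean CPM, 12.2% of protein-coding genes were called higher and 4.84% lower, and in the highest group 5.87% were higher and 24.0% lower. With ERCC scaling the shares of decreases were 8.54% and 40.6%.

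Gene classes differed in how often they rose. Of 12177 protein-coding genes tested, 1339 were called higher and 1666 (13.7%) lower. Of 1056 long noncoding RNAs (lncRNAs) that passed the filter, out of 4785 in the annotation, 351 (33.2%) were called higher and 64 (6.06%) lower, with a median log2 difference of 0.37. Pseudogenes stood at 113 of 363 higher (31.1%) and 21 lower. Genes with no RefSeq match stood at 427 of 1464 higher (29.2%) and 121 lower. With ERCC scaling 247 lncRNAs were still called higher and 128 were called lower, with a median of 0.11. Without Dis3 cKO 16 these were 248 higher and 190 lower, with a median of 0.0077. A lncRNA near 0 in controls can pass the filter through its knockout level alone. Among lncRNAs with a control mean of at least 1 CPM, 234 of 902 were called higher (25.9%) with scaling within libraries. In that set 64 were lower, and the median was 0.22. Of all genes tested with that control mean, 1677 of 14201 were called higher (11.8%).

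As a share of all gene counts, lncRNAs made up 2.02% to 2.54% (median 2.24%) in controls and 2.44% to 3.39% (median 2.96%) in Dis3 cKO oocytes. Dis3 cKO 16 and 8, at 2.44% and 2.51%, lay within the control range and the other 13 knockout oocytes above it. The mean log2 share was higher by 0.38 (SE 0.06, two-sided exact permutation test over 490314 regroupings, p = 1.02e-05). A single gene, AY036118, held 0.527% of counts in controls and 0.946% in the knockout. This gene lies in sequence shared with ribosomal RNA repeats, so its counts are uncertain. Without the 10 lncRNAs of highest mean count, AY036118 among them, the difference was 0.35 (p = 4.49e-05, same test).

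**Figure D2:**
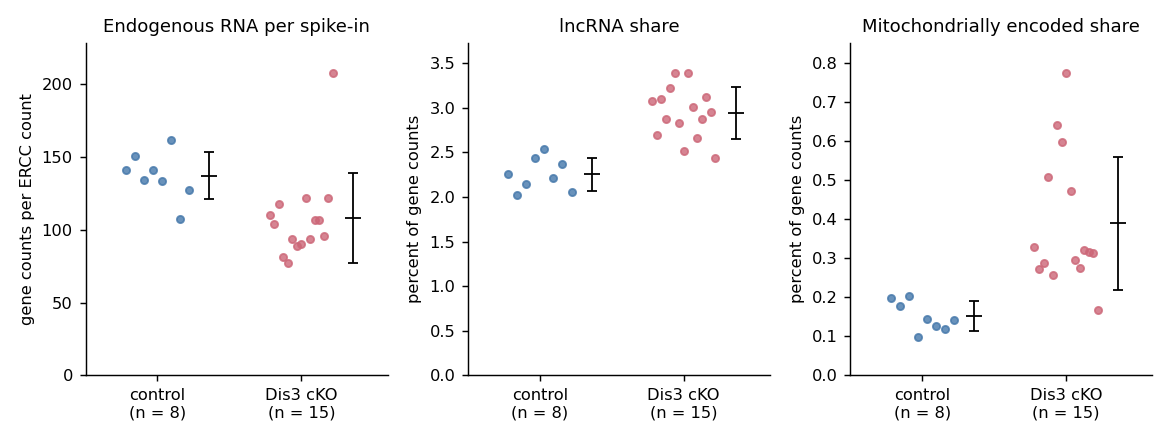
Gene counts per ERCC count (left), the lncRNA share of gene counts (middle) and the share of mitochondrially encoded protein-coding genes (right), 1 point per oocyte, with the mean and SD beside each group. On the left 10 knockout oocytes lie below all controls, 4 within the control range and 1 above it at 207.9, and knockout points lie higher in the other panels, where 2 and 1 knockout oocytes, the lowest at 2.44% and 0.169%, lie within the control ranges.

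The share of lncRNAs called higher was larger among those that start beside a protein-coding gene. RefSeq starts on GRCm38.p6 were listed for 845 of the 1056 lncRNAs tested. A lncRNA was called divergent when it starts at most 1000 bp upstream of an annotated start of a protein-coding gene on the other strand, so that the pair is transcribed outward from a shared promoter region. This class was defined after seeing that lncRNAs near a neighbouring gene rose more often. Of 194 divergent lncRNAs tested (458 in the annotation), 105 were called higher (54.1%) and 5 lower, with a median log2 difference of 0.89. Of 651 lncRNAs with another kind of start, 185 were called higher (28.4%) and 45 lower, with a median of 0.27. With ERCC scaling, 81 divergent lncRNAs were called higher and 12 lower, with a median of 0.61, and the other lncRNAs with a listed start had a median of 0.01. The shares of all genes tested that were called higher, for comparison, were 14.8% and 7.3% with the respective scaling. Among lncRNAs with a control mean of at least 1 CPM, which the knockout level does not select, 70 of 153 divergent ones were called higher (45.8%), against 122 of 567 with another start (21.5%). Without Dis3 cKO 6 and 8, 104 of 188 divergent lncRNAs were called higher, and without the 5 libraries of highest granulosa marker level (Dis3 cKO 1, 3 and 4 and controls 2 and 3), 84 of 197.

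The coding partners of these lncRNAs did not share the pattern. Of 184 partners tested, 22 were called higher and 26 lower, against 14.8% and 12.4% of all genes tested, and their median log2 difference was -0.02 (with ERCC scaling -0.28, 7 higher and 52 lower). Among the 102 tested partners of divergent lncRNAs that were called higher, 17 were higher and 14 lower. By distance between the starts, 42 of 83 divergent lncRNAs at up to 100 bp were called higher (median 0.70), 41 of 74 at over 100 and up to 300 bp (median 0.97) and 22 of 37 at over 300 and up to 1000 bp (median 1.31). These 3 medians fell to 0.45, 0.70 and 1.07 with ERCC scaling.

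**Figure D3:**
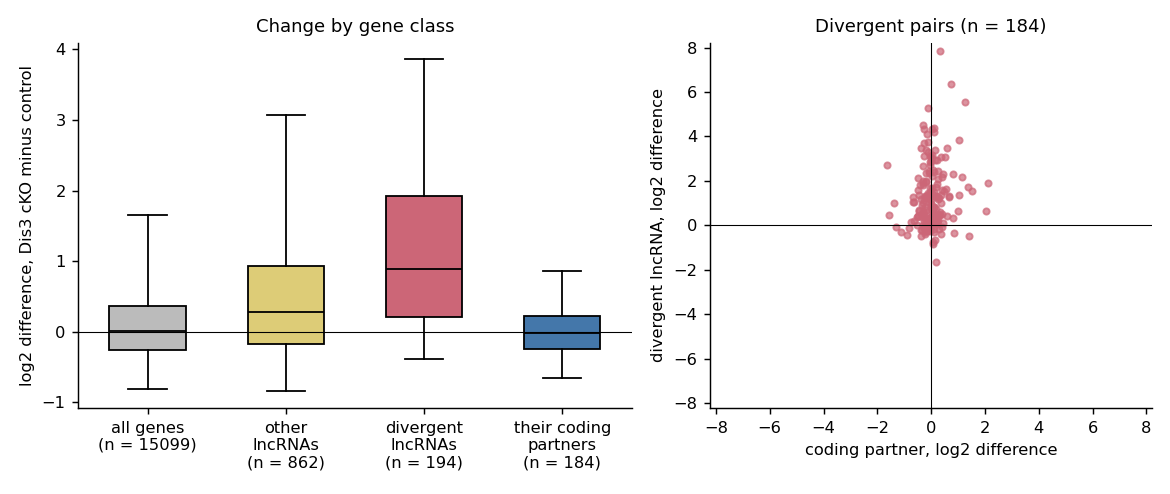
Left: log2 difference between Dis3 cKO and control oocytes for all genes tested, lncRNAs that are not divergent, divergent lncRNAs and the protein-coding partners of the latter; boxes span the quartiles, lines mark medians and whiskers the 5th and 95th percentiles. Right: each divergent lncRNA (y axis) against its partner (x axis), 184 pairs; the points spread upward along the y axis (median 0.89 over all 194) while the partners centre on -0.02.

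The stretches between the 2 starts are printed for 4 of these pairs, because they are the shared promoters from which the lncRNA rose while the partner was measured alongside. They are the 4 divergent lncRNAs called higher of smallest adjusted p whose starts lie 20 to 250 bp apart, a choice made after their values were seen. Pairs on a single chromosome were left out of this choice and are not reported here. Each runs 5′ to 3′ on the strand of the lncRNA, from the base after the partner's start to the base before the lncRNA's start, with CG dinucleotides in capitals (RefSeq, GRCm38.p6).
2610017A05Rik and Ipo8 (chr6:148831468-148831619, plus strand): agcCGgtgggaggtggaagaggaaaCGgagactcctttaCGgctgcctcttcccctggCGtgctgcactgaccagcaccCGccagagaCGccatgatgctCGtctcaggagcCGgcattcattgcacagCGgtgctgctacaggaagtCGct
Gm17518 and Mis18a (chr16:90727372-90727419, plus strand): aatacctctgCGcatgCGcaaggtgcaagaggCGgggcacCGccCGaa
4632404H12Rik and Ube2q1 (chr3:89773401-89773608, minus strand): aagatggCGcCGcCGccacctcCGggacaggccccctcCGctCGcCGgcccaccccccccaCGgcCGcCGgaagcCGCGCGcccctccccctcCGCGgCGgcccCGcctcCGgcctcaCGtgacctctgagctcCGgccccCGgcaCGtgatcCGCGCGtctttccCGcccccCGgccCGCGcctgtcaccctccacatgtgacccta
D030047H15Rik and Leng8 (chr7:4136927-4137055, minus strand): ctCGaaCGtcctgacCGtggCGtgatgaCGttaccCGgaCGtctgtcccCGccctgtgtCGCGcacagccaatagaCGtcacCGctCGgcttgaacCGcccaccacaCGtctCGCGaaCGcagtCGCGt
In these 4 stretches the CG count was 10 in 152 bases, 5 in 48 bases, 29 in 208 bases and 20 in 129 bases, in the order printed. Over the 300 bases from 250 before to 50 after each start, promoters of divergent lncRNAs called higher held a median of 31 CG dinucleotides (105 promoters), those of divergent lncRNAs not called held 28 (84 promoters), the promoters of all genes tested held 20 (10701 promoters), and all 27025 genes with a listed promoter held 7. The motif GGGCGG, searched on both strands, was found in 75.2% of promoters of divergent lncRNAs called higher, 64.3% of those not called, 60.4% of those of all genes tested and 35.9% of all promoters. TATAAA, on both strands, was found in 4.76%, 2.38%, 7.65% and 14.2%, and CCAAT in 35.2%, 36.9%, 39.0% and 37.9%, in the same order. These are descriptions of letters in a window, and do not say which factor bound there.

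The lncRNA 2610017A05Rik, on chr6 at 148831620-148833114, starts 153 bp from Ipo8, which encodes a nuclear import receptor. It lay between 2.49 and 7.57 CPM (median 3.93) in controls and between 30.8 and 182 CPM (median 69.5) in Dis3 cKO oocytes, with no overlap. Its log2 difference was 4.12 (SE 0.38, adjusted p = 1.45e-08; ERCC scaling 3.93). Ipo8 was at 891 ± 96.6 CPM (SD, n = 8) and 798 ± 176 CPM (SD, n = 15), a log2 difference of -0.16 (adjusted p = 0.335). Gm17518 on chr16 at 90727420-90729960, which starts 49 bp from the centromere loading factor gene Mis18a, lay at 0.329 to 2.29 CPM in controls (median 1.02) and at 6.99 to 23.2 CPM in the knockout (median 10.3). Every knockout oocyte exceeded every control, and the log2 difference was 3.39 (SE 0.35, adjusted p = 6.75e-08), against 0.14 for Mis18a (adjusted p = 0.392). 4632404H12Rik, 209 bp from the ubiquitin-conjugating enzyme gene Ube2q1 on chr3, had a log2 difference of 2.51 (SE 0.27, adjusted p = 1.24e-07), and Ube2q1 one of 0.05 (adjusted p = 0.869). D030047H15Rik on chr7 was at 0 in 7 controls and at 0.329 CPM in control 1, and lay between 1.06 and 6.36 CPM in the knockout. Its partner Leng8 was the exception of the 4: it also rose, by 1.26 (SE 0.20, adjusted p = 2.34e-05).

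Other divergent pairs gave similar values. Gm15983 and the methyltransferase gene Eef2kmt start 7 bp apart: the lncRNA rose by 2.86 (adjusted p = 1.17e-08) and Eef2kmt had a log2 difference of -0.05 (adjusted p = 0.866). 1700055D18Rik, 398 bp from Zbtb5, rose by 4.20 (SE 0.46, adjusted p = 1.48e-07), against 0.09 for Zbtb5 (SE 0.63). 2810013P06Rik starts 291 bp from Ankrd11, a chromatin regulator gene. It went from 3.66 ± 1.33 CPM (SD, n = 8) to 30.1 ± 11.8 CPM (SD, n = 15), with a log2 difference of 3.06 (adjusted p = 4.82e-09), and Ankrd11 rose by 0.50 (adjusted p = 0.0203). Other lncRNAs that rose most lie apart from such a pair or within a gene. 1700001G17Rik rose from 0 to 1.52 CPM in controls to 13.3 to 38.1 CPM in the knockout (log2 difference 4.78, SE 0.37, adjusted p = 7.13e-10), and Gm39465 rose by 3.55 (adjusted p = 7.37e-09). Rncr4, known as a retinal noncoding RNA, was at 0 to 0.519 CPM in controls and 2.91 to 16.8 CPM in the knockout. 2900060B14Rik and Gm26698 also rose, from 12 and 13 counts over all controls to 848 and 837 counts over all Dis3 cKO oocytes. Only 2 lncRNAs fell without overlap of the groups at 5 CPM or more: Gm31678 fell by 1.31 (adjusted p = 2.02e-04) and 0610040F04Rik, which overlaps Bhlhe40, fell by 1.13 (adjusted p = 7.58e-07).

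Small nucleolar RNAs (snoRNAs) guide rRNA modification, and the exosome trims their 3′ ends. Among their spliced noncoding host genes, 7 of 11 tested of 15 were called higher and 0 lower, with a median of 0.92 (ERCC scaling 5 higher, 0 lower, median 0.64). The shares of all genes tested were 14.8% higher and 12.4% lower (ERCC scaling 7.3% and 21.5%). Snhg18 lay between 25.4 and 34 CPM in controls and between 28.9 and 67.6 CPM in the knockout, a log2 difference of 0.92 (SE 0.13, adjusted p = 3.31e-06). Dis3 cKO 8 alone lay within the control range. Snhg3 rose by 2.41 (SE 0.32, adjusted p = 2.48e-06) and Snhg10 by 1.98 (SE 0.31, adjusted p = 1.97e-05), both without overlap of the groups. Both overlap the small RNAs they host, and Snhg14 (log2 difference 1.21, adjusted p = 1.48e-04) overlaps Ube3a, so reads could be shared. Snhg6 did not pass, at -0.07 (adjusted p = 0.839). Without Dis3 cKO 6 and 8, the count stayed 7 of 11, and without the 5 libraries of highest granulosa markers it was also 7 of 11.

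Messages of replication-dependent histone genes normally end in a stem-loop and carry no poly(A) tail. The list of these genes, which also holds H1f0, gave 13 of 26 tested members (of 71) higher and 1 lower. Its median was 0.71 (ERCC scaling 8 higher and 2 lower, median 0.43). Among all genes tested 14.8% were higher and 12.4% lower (ERCC scaling 7.3% and 21.5%). Hist1h1e, a linker histone gene, lay between 0.231 and 2.68 CPM in controls and between 3.02 and 13 CPM in the knockout, a log2 difference of 1.67 (SE 0.33, adjusted p = 3.28e-04). Hist3h2ba rose by 1.18 (adjusted p = 0.0012) and Hist1h3g by 2.08 (adjusted p = 0.00142). Hist1h2bc, the member that fell, went from 98.8 ± 25.7 CPM (SD, n = 8) to 57.9 ± 16.3 CPM (SD, n = 15; log2 difference -0.77, adjusted p = 5.90e-04). H1f0, a member of the list though it is a linker histone made outside replication, was at 0.26 (adjusted p = 0.0516). These genes have near-identical copies, so how reads were divided among them is uncertain. Without Dis3 cKO 6 and 8 the count was 11 of 24 higher (with ERCC scaling 5 higher and 3 lower), and without the libraries of highest granulosa markers 9 of 26. The count was larger against Dis3 cKO 1 to 8, with 15 of 24 higher and 1 lower (median 0.97), than against Dis3 cKO 10 to 16, with 5 of 24 higher and 2 lower (median 0.48). The difference between these sets of oocytes was not tested. In libraries of the same genotype made after removal of ribosomal RNA, 6 of 25 were higher and 2 lower (median 0.12). There 16.5% of all genes tested in both were higher and 13.2% lower, over single oocytes that may share animals. After 3 h of culture 8 of 25 were higher and 5 lower (median 0.30), against 28.6% and 25.9% of all genes.

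All 7 mitochondrially encoded protein-coding genes that passed the filter were called higher, with a median of 1.30 (ERCC scaling 7 higher, median 0.98). The shares of all genes called higher were 14.8% and, with ERCC scaling, 7.3%. mt-Nd5, a subunit of respiratory complex I, lay between 179.8 and 302 CPM (median 222) in controls and between 224 and 1348 CPM (median 548) in the knockout. The groups overlapped at Dis3 cKO 16, and the log2 difference was 1.43 (SE 0.22, adjusted p = 1.38e-05). mt-Nd2 rose by 1.44 (adjusted p = 2.04e-05), mt-Nd4 by 1.15 (adjusted p = 1.80e-05) and mt-Nd6 by 1.01 (adjusted p = 8.31e-06). The share of these genes in all counts was 0.098% to 0.203% in controls and 0.169% to 0.775% in Dis3 cKO oocytes, and the highest values were those of Dis3 cKO 8 and 6. Without those 2 oocytes all 7 were still called, with a median of 1.16. The other 6 of 13 protein-coding genes of the mitochondrial genome had between 0 and 16 counts over all 23 libraries (mt-Co2 had 6). Nuclear copies of mitochondrial DNA share sequence with these genes, and the handling of reads that match several places is not given in the sources used here.
The nuclear-encoded oxidative phosphorylation list is read against 14.8% higher and 12.4% lower of all genes tested (ERCC scaling 7.3% and 21.5%). In that list 1 of 89 was called higher and 15 lower, with a median of -0.14 (ERCC scaling 0 higher and 43 lower, median -0.42). These counts moved with the oocytes used: Dis3 cKO 10 to 16 against the controls gave 0 higher and 35 lower of 88 (median -0.28), and Dis3 cKO 1 to 8 gave 9 higher and 8 lower of 89 (median -0.03). Without the 5 libraries of highest granulosa markers, 1 was higher and 9 lower of 90. Ndufb5, another complex I subunit, fell from 149 ± 29 CPM (SD, n = 8) to 66.5 ± 13.7 CPM (SD, n = 15) without overlap, a log2 difference of -1.17 (SE 0.12, adjusted p = 7.68e-08), and Cox10 fell by 0.48 (adjusted p = 2.78e-05).

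Among protein-coding and unannotated genes, the largest increases without overlap of the groups were of genes close to 0 in controls. Btnl2, a butyrophilin-like gene, lay between 0 and 0.466 CPM in controls and between 4.62 and 13.7 CPM in the knockout (log2 difference 5.22, SE 0.44, adjusted p = 3.05e-09). A further 13 of the 15 largest increases had between 3 and 28 counts over all controls and between 622 and 1960 over all Dis3 cKO oocytes. For 5830411K02Rik, with 3 control counts, the ratio of summed counts was 110 (95% exact binomial interval 37.4 to 534, counting error only). These 13 include the lncRNA Rncr4, the pseudogene Gm18873 and 7 genes with no match in the RefSeq table. The naming rule fixes that in the 15 largest increases every knockout oocyte exceeds every control. It asks for a mean of 5 CPM in the higher group, which the knockout level alone can meet.

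The largest decreases without overlap are named by the same rule, which asks for 5 CPM in the higher group and so fixes that control levels were not low. Serpinb1c, a serine protease inhibitor gene with close paralogs, lay between 17.4 and 35.2 CPM in controls and between 0.135 and 4.2 CPM in the knockout, a log2 difference of -3.87 (SE 0.34, adjusted p = 5.60e-09). Apba2, an adaptor of membrane traffic, lay between 41.1 and 76 CPM in controls and between 5.74 and 18.9 CPM in the knockout (log2 difference -2.50, SE 0.16, adjusted p = 3.12e-11). Cd160, known as a receptor of lymphocytes, fell from 147 to 268 CPM in controls to 11.1 to 85.7 CPM in the knockout (log2 difference -2.34, adjusted p = 9.03e-07). A pair of transporter genes and a signalling gene were also named by this rule, which asks that all knockout oocytes lie below all controls. Slc7a1, the carrier of arginine and lysine, fell by 2.33 (SE 0.29, adjusted p = 1.14e-06). Slc35a1, which brings CMP-sialic acid into the Golgi, fell by 2.20 (SE 0.28, adjusted p = 1.18e-06). Rapgef3, a cAMP-activated exchange factor, fell by 2.80 (SE 0.43, adjusted p = 1.71e-05). Elavl3, an RNA-binding protein gene, fell by 2.21 and Stat4, a transcription factor gene, fell by 2.22 (adjusted p = 1.05e-05 and 7.78e-06). Bicra, a subunit of a BAF chromatin remodeller, fell by 2.34, E4f1, a ubiquitin ligase gene, fell by 2.10, and 4930562C15Rik fell by 2.36.

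Some of the largest decreases were not seen in other libraries of the same genotype. Vmn1r139, a vomeronasal receptor gene on chr7, had 553 counts over the 8 controls (3.43 to 20.4 CPM) and 0 over the 15 Dis3 cKO oocytes, so it was at least 348-fold lower when the knockout is set at a floor of 3 counts over the group. In oocytes cultured for 3 h, 4 of 8 controls and 8 of 16 knockouts were at 0, and in libraries made after removal of ribosomal RNA its level was 2.71 to 10.8 CPM in 8 controls and 0.211 to 8.52 CPM in 8 knockouts. Pglyrp1, which encodes a peptidoglycan-binding protein, fell by 2.85 (SE 0.32, adjusted p = 1.87e-07), with -0.37 (adjusted p = 0.56) in the RiboMinus libraries and -0.68 (adjusted p = 0.163) at 3 h. Entpd1, the ectonucleotidase CD39, fell by 2.42 (adjusted p = 6.01e-05) and was higher in the RiboMinus knockout by 1.18 (adjusted p = 0.00106). The RiboMinus values are over single oocytes that may share animals, and with counts summed over 2 title identifiers per group Entpd1 was at 1.14 (adjusted p = 0.232). Differences between these comparisons were not tested.

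**Figure D4:**
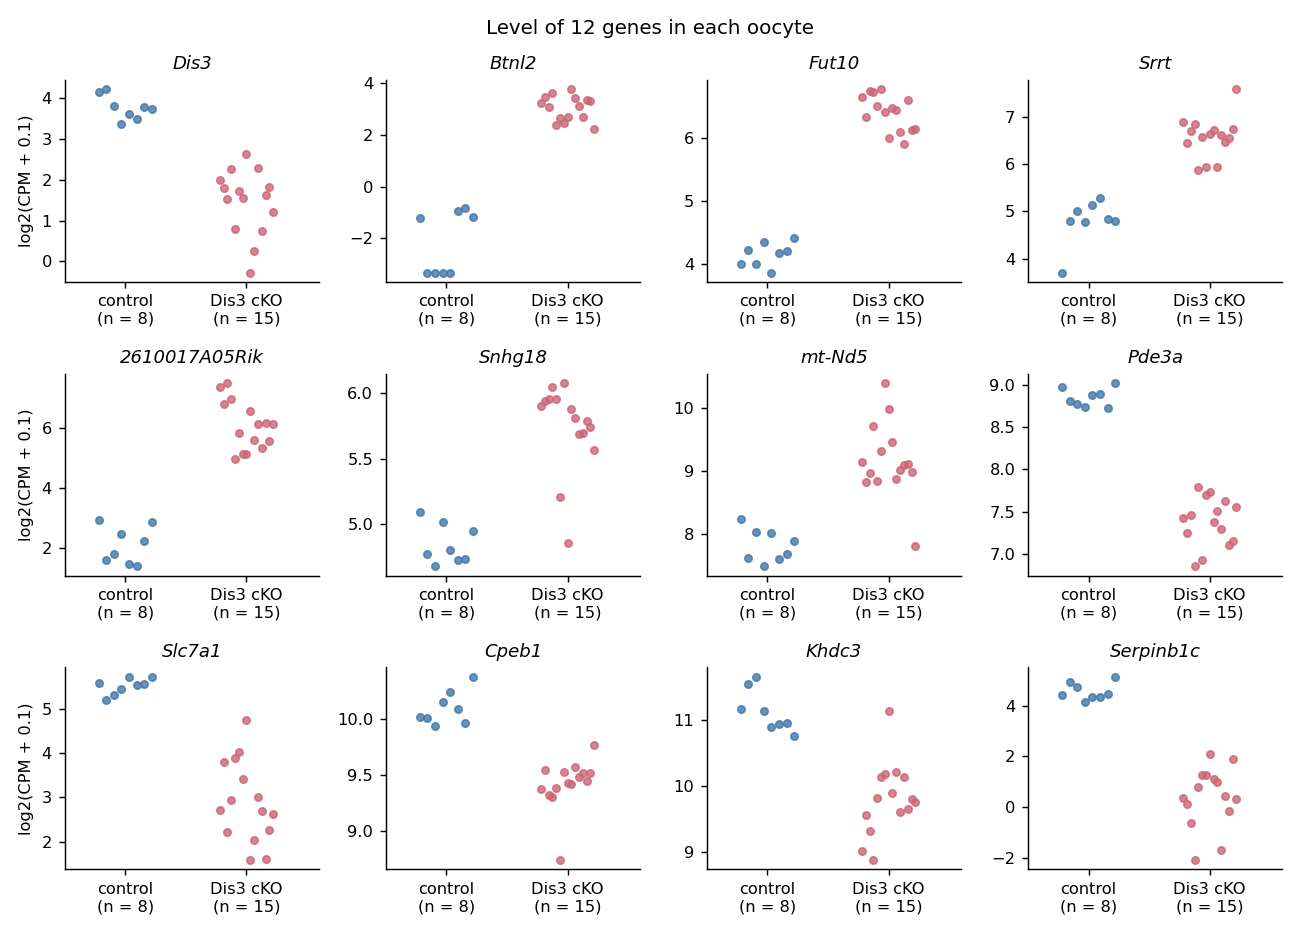
Level of 12 genes in each of 8 control and 15 Dis3 cKO oocytes, as log2(CPM + 0.1) with TMM scaling, 1 point per oocyte. Knockout oocytes lie apart from controls for Dis3, Btnl2, Fut10, Srrt, 2610017A05Rik, Pde3a, Slc7a1, Cpeb1 and Serpinb1c, while for Snhg18, mt-Nd5 and Khdc3 at least 1 knockout oocyte reaches the control range.

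The exosome and its partners were examined as a list. Of 26 members tested, 3 were called higher and 5 lower, with a median of -0.08 against 0.01 for all genes (ERCC scaling 0 higher and 10 lower). Of all genes tested 14.8% were higher and 12.4% lower (ERCC scaling 7.3% and 21.5%). Exosc9, a subunit of the ring, fell from 34.1 to 49.4 CPM in controls to 10.3 to 31.2 CPM in the knockout, without overlap (log2 difference -1.20, SE 0.14, adjusted p = 5.17e-07). It overlaps the cyclin gene Ccna2, so reads could be shared. Exosc2, a cap subunit, rose by 0.88 (adjusted p = 9.03e-04) and Zfc3h1, which links the exosome to polyadenylated nuclear RNA, by 0.56 (adjusted p = 1.70e-04); with ERCC scaling these were 0.64 and 0.29 and missed the threshold. Mphosph6, an EXOSC10 cofactor, was at -0.13 (adjusted p = 0.441).
Among factors that bind capped RNA and end transcription early, Srrt (ARS2) rose from 12.9 to 38.7 CPM in controls (median 28.1) to 58.8 to 192 CPM in the knockout (median 98.2). No values overlapped, and the log2 difference was 1.78 (SE 0.19, adjusted p = 1.33e-07; ERCC scaling 1.62). ARS2 joins the nuclear cap-binding complex to the exosome. Phax, the export adaptor of small nuclear RNAs, rose by 0.90 (adjusted p = 6.25e-04) and missed the threshold with ERCC scaling at 0.64 (adjusted p = 0.0511). In all, 2 of 14 members of that list were called higher and 2 lower, against 14.8% and 12.4% of all genes tested.

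Lists of the transcription and RNA processing machinery are read against the shares of all genes tested, 14.8% higher and 12.4% lower (ERCC scaling 7.3% and 21.5%). Of 35 genes for RNA polymerase II subunits and elongation factors, 2 were called higher and 8 lower (median -0.15; ERCC scaling 0 and 16). The subunit gene Polr2e fell from 79.5 ± 8.16 to 53.8 ± 6.69 CPM (SD, n = 8 and 15; log2 difference -0.56, adjusted p = 1.34e-05), Polr2j fell by 0.48 (adjusted p = 0.00121) and the elongation factor gene Leo1 fell by 0.59 (adjusted p = 0.00653). Of 33 cleavage and polyadenylation genes, 2 were higher and 2 lower, with Fip1l1 at -0.38 (adjusted p = 0.00248) and Cstf3 at 0.53 (adjusted p = 0.00287). The call of Cstf3 was lost with ERCC scaling, at 0.27 (adjusted p = 0.265), with the replicate block and without the 5 libraries of highest granulosa markers. ERCC scaling gave 0 higher and 6 lower genes in that list. Of 45 splicing genes, 3 were higher and 5 lower: Srpk1, a kinase of SR proteins, fell from 788 ± 110.4 to 475 ± 42.6 CPM without overlap (-0.73, adjusted p = 8.42e-08), and the SR protein gene Srsf1 rose from 3.2 ± 0.839 to 9.03 ± 2.95 CPM (adjusted p = 2.21e-05). Of 26 deadenylation and decay genes, 1 was higher and 5 lower. Xrn1, the cytoplasmic 5′ exonuclease, fell from 62.8 ± 11.6 to 29.1 ± 8.52 CPM (-1.11, SE 0.15, adjusted p = 4.43e-06), and Cnot9, a CCR4-NOT subunit, rose by 0.41 (adjusted p = 1.81e-04), which became 0.14 (adjusted p = 0.493) with ERCC scaling. Btg4, which recruits that deadenylase at maturation, was at 0.07 (adjusted p = 0.679). Of 15 nonsense-mediated decay genes 4 were higher and 3 lower, and with ERCC scaling 0 and 6.

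The list of oocyte identity genes leaned lower, though not in all its parts. Its 11 transcription factors had a median of -0.0074 (1 higher and 2 lower). The medians were -0.43 for zona pellucida and gamete fusion genes, -0.30 for secreted factors and junctions, and -0.30 for the subcortical maternal complex and Nlrp genes. A separate list of 12 oocyte markers gave 1 higher and 2 lower (median -0.11). Of 33 oocyte identity genes tested (39 written), 1 was called higher and 11 lower, with a median of -0.30 against 0.01 for all genes (ERCC scaling 0 higher and 17 lower, median -0.56, against -0.26). Several of these genes are at high levels. In the highest of the 5 level groups of protein-coding genes, 5.87% were higher and 24.0% lower, with a median of -0.12 (ERCC scaling 40.6% lower, median -0.38). The part of level in this list was not tested. Khdc3, a member of the subcortical maternal complex, lay between 1734 and 3218 CPM in controls and between 472 and 2248 CPM in the knockout, a log2 difference of -1.25 (SE 0.19, adjusted p = 1.92e-05). Dis3 cKO 8 alone reached the control range. Obox2, an oocyte homeobox gene with close paralogs, fell by 1.27 (SE 0.22, adjusted p = 8.70e-05). Lhx8, a transcription factor of follicle formation, fell by 0.68 without overlap (SE 0.09, adjusted p = 2.24e-06). The zona pellucida genes Zp3 and Zp1 had log2 differences of -0.59 and -0.66 (adjusted p = 6.13e-04 and 0.00208). Gdf9 and Nlrp14 did not pass, at -0.30 and -0.27 (adjusted p = 0.0608 and 0.097). Without Dis3 cKO 6 and 8 the count was 0 higher and 13 lower of 33, and without the libraries of highest granulosa markers 1 and 7.

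Genes that hold and release meiotic arrest gave 2 of 49 higher and 12 lower (median -0.11; ERCC scaling 0 and 17, and 0 and 32 without Dis3 cKO 16). Of all genes tested 14.8% were higher and 12.4% lower (ERCC scaling 7.3% and 21.5%). Without Dis3 cKO 16, ERCC scaling gave 1086 higher and 5650 lower of all 14992 genes. Pde3a, the phosphodiesterase that lowers cAMP so that meiosis can resume, lay between 425 and 523 CPM (median 460.4) in controls and between 115 and 221 CPM (median 172) in the knockout. The groups were far apart, and the log2 difference was -1.45 (SE 0.10, adjusted p = 7.90e-11; ERCC scaling -1.72). Ccnb3, a cyclin needed for the first meiotic division, fell by 1.33 without overlap (SE 0.22, adjusted p = 4.89e-05). Ccnb2, a partner of CDK1, fell by 0.46 (adjusted p = 0.00114) and the kinase gene Mapk3 fell by 0.46 (adjusted p = 3.30e-04). Mos, the kinase that upholds the later arrest, was at 0.06 (adjusted p = 0.871).
Genes of message storage and translational control gave 3 of 19 higher and 6 lower (median -0.25; ERCC scaling 0 and 8). The shares of all genes tested were 14.8% and 12.4% (ERCC scaling 7.3% and 21.5%). Cpeb1, which binds stored messages and drives their polyadenylation, fell from 1103 ± 120.2 CPM (SD, n = 8) to 694 ± 93.7 CPM (SD, n = 15) without overlap, a log2 difference of -0.67 (SE 0.09, adjusted p = 2.78e-06). Zar1, another keeper of stored messages, fell by 0.64 (SE 0.11, adjusted p = 5.40e-05), also without overlap. Dazl, a translational activator, was higher by 0.65 (adjusted p = 0.00282) within libraries and at 0.35 (adjusted p = 0.157) per ERCC count.

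Among chromatin genes, the DNA methylation cofactor Dnmt3l fell from 121 to 135 CPM in controls to 65.4 to 92.8 CPM in the knockout, a log2 difference of -0.68 (SE 0.07, adjusted p = 9.29e-08). Dnmt1, the maintenance methyltransferase, fell by 0.69 (adjusted p = 0.00146) and Uhrf1, which guides it, fell by 0.49 (adjusted p = 0.00148), while Trim28 was higher by 0.48 (adjusted p = 0.00223) within libraries and at 0.27 (adjusted p = 0.327) per ERCC count. In that list 4 of 27 were higher and 5 lower, and in the list of Polycomb genes and H3K27 demethylases 1 of 29 higher and 3 lower. Both lists were near the shares of all genes tested, 14.8% higher and 12.4% lower (ERCC scaling 7.3% and 21.5%), apart from the few Polycomb increases. Kdm2b, which brings a Polycomb complex to CpG islands, fell from 183 ± 29.3 to 89 ± 18 CPM (SD, n = 8 and 15) without overlap (-1.04, SE 0.12, adjusted p = 2.13e-07). The Polycomb gene Ring1 was called higher from 13 counts over all controls to 215 over the knockouts, with 5 controls at 0. C2H2 zinc finger genes gave 58 of 307 higher and 17 lower within libraries (median 0.19) but 17 higher and 30 lower per ERCC count (median -0.11), so their direction depends on the scaling.

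Lists of protein turnover and metabolism genes are read against the shares of all genes tested, 14.8% higher and 12.4% lower (ERCC scaling 7.3% and 21.5%). Of 36 proteasome subunit genes, 0 were called higher and 13 lower (median -0.22; ERCC scaling 24 lower, median -0.49), with Psmd2 at -0.52, Psmd4 at -0.41 and Psmc4 at -0.45 (adjusted p = 3.94e-05, 2.35e-04 and 5.04e-04). In the RiboMinus libraries of the same genotype 2 of 35 were lower and 1 higher, with a median of 0.06. Of 81 cytosolic ribosomal protein genes 1 was higher and 12 lower, and of 78 mitochondrial ones 5 were higher and 7 lower. Against Dis3 cKO 10 to 16 alone these were 1 and 24 of 79 and 4 and 17 of 77, and against Dis3 cKO 1 to 8 they were 4 and 5 of 79 and 7 and 1 of 76. Ribosomal protein genes have many processed pseudogenes that share reads. In the glycosylation list 5 of 35 were higher and 6 lower. Fut10, a fucosyltransferase gene on chr8 at 31187313-31265284, had the smallest adjusted p of that list. It lay between 14.4 and 21.2 CPM in controls and between 59.9 and 109 CPM in the knockout (2.27, SE 0.13, adjusted p = 1.17e-12; ERCC scaling 1.99). Pofut1, which fucosylates Notch, rose by 2.46 (adjusted p = 8.81e-05) from 1.21 ± 0.899 CPM (SD, n = 8). In the endosome list 4 of 36 were higher and 6 lower: Rab8b fell by 0.82 and Eea1 fell by 0.63 (adjusted p = 7.25e-06 and 1.93e-05). Of 13 amino acid transporter genes 1 was higher and 3 lower, Slc43a2 being the one that rose (3.24, adjusted p = 3.73e-05).
Damage and stress genes gave few calls: 3 of 28 genes of the p53, DNA damage and apoptosis list were higher and 3 lower, and 0 of 21 integrated stress and unfolded protein genes were higher and 2 lower. The shares of all genes tested were 14.8% and 12.4%. Tert, the telomerase reverse transcriptase, fell from 39.9 to 54.1 CPM to 5.11 to 39.6 CPM (-1.79, SE 0.28, adjusted p = 1.94e-05), and the checkpoint kinase gene Chek2 rose by 1.26 (adjusted p = 0.0026).

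**Figure D5:**
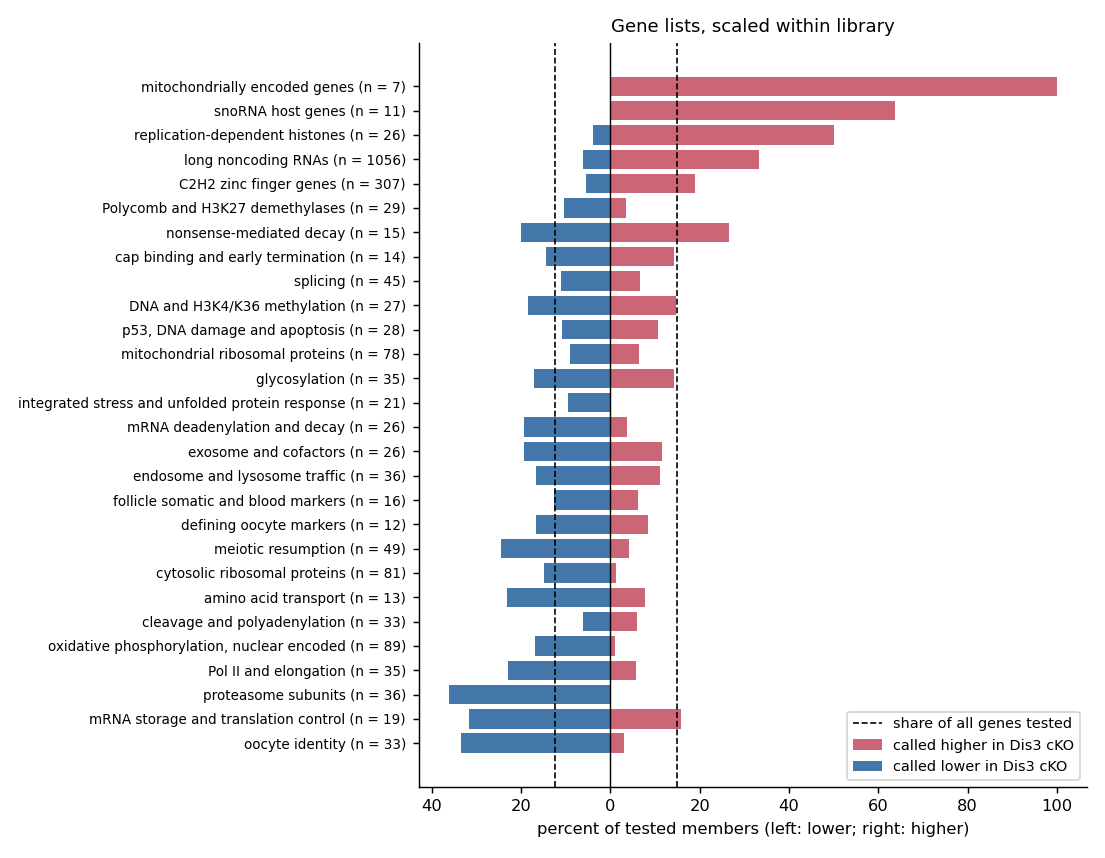
Percent of tested members of each gene list called lower (left) and higher (right) in Dis3 cKO oocytes with scaling within libraries, ordered by the median log2 difference of the list; dashed lines mark the shares of all genes tested (12.4% lower, 14.8% higher). Mitochondrially encoded genes (7 of 7 higher) stand at the top and oocyte identity genes (11 of 33 lower) at the bottom.

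Counts of called members of 28 lists with 5 or more tested genes were compared across sets of libraries. Without Dis3 cKO 6 and 8 they moved by over 1.5 times in 3 lists: splicing genes became 6 higher and 10 lower of 45, Polycomb genes and H3K27 demethylases 4 and 3 of 29, and integrated stress genes 1 and 3 of 21. With ERCC scaling and without Dis3 cKO 16 they moved by over 1.5 times in 15 of the 28 lists. Lower genes then numbered 16 in the exosome list, 25 in the RNA polymerase II list, 22 in cleavage and polyadenylation, 26 in splicing, 16 in deadenylation and decay, 14 in message storage and 66 of 304 C2H2 zinc finger genes. Over all genes tested the same step moved the lower genes from 3248 to 5650. Taking Dis3 cKO 1 to 8 or 10 to 16 alone moved 9 and 6 lists by over 1.5 times, with fewer oocytes in each fit. Meiotic arrest genes gave 2 higher and 6 lower of 49 against Dis3 cKO 1 to 8, and 2 and 3 with the replicate block. Against Dis3 cKO 1 to 8, without the block, proteasome genes gave 0 higher and 8 lower of 36, and snoRNA hosts 4 and 0 of 9.

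Markers of other cell types varied with the knockout oocytes used. Of 37 markers of granulosa, blood and theca cells, 16 passed the filter. Of these 1 was called higher and 2 lower (median -0.10), against 14.8% and 12.4% of all genes tested. Against Dis3 cKO 1 to 8 these were 2 higher and 2 lower of 16 (median 0.22), and against Dis3 cKO 10 to 16 they were 1 higher and 5 lower of 12 (median -0.87). The summed level of 7 theca or stroma markers was 0 to 3.72 CPM in controls and 0 to 21.6 CPM in the knockout, where Dis3 cKO 1, 2, 3, 4, 6 and 8, at 5.33 CPM or more, lay above all controls. Dis3 cKO 1 to 8, against which the histone count was larger, hold these 6 oocytes, and the part of theca RNA in that count was not tested. Cyp19a1 fell by 1.35 (adjusted p = 7.90e-07) and Pecam1 fell by 1.03 (adjusted p = 1.03e-04), both present in every control at over 30 CPM, while Star rose by 2.23 (adjusted p = 0.00197) at 0.447 to 14.4 CPM. Granulosa markers that define the cell, such as Inha (log2 difference -1.01, adjusted p = 0.293) and Gja1 (-0.78, adjusted p = 0.465), varied widely within both groups. Fst, Hsd17b1, Nr5a1 and Inhba were also negative without passing (-1.22, -1.07, -0.25 and -0.13). Cyp11a1, Ptgs2 and Fshr were positive without passing (2.37, 0.96 and 0.50). Cyp11a1, at an adjusted p of 0.0538, reached 3.3 CPM of gene counts in controls and 48.1 in the knockout. Whether follicle cell RNA takes part in single results was not tested beyond leaving out the 5 libraries where these markers were highest, which left 1823 higher and 1420 lower genes.

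Other oocytes of the same genotype, sharing no library with these, were set beside the result. In RiboMinus libraries of adult GV oocytes (8 control, 8 Dis3 cKO), 28.1% of 15334 genes tested were called, 15.7% higher and 12.4% lower. Their titles carry 2 identifiers per group with 4 oocytes each, so these libraries may share animals, and p-values over single oocytes are then too small. With counts summed over the 2 identifiers of a group, 0 of 20190 genes passed in edgeR's quasi-likelihood F test (smallest adjusted p = 0.105, 3577 genes at an unadjusted p under 0.05). In those sums 1976 of 2168 genes called higher in the poly(A) libraries had a positive log2 difference and 1663 of 1848 called lower a negative one. Over single oocytes, of 1920 genes called higher here and tested there, 1181 (61.5%) were called higher there as well, which is 51.4% of the 2298 called higher there, and 12 were called lower. Of 1820 genes called lower here, 788 (43.3%) were lower there, 43.0% of the 1834 lower there, and 22 were higher. After 3 h of culture (8 control, 16 Dis3 cKO), where 54.6% of 15580 genes were called, 29.7% higher and 24.9% lower, 1814 of 2214 genes higher here (81.9%) and 1436 of 1861 genes lower here (77.2%) were called in the same direction. The divergent lncRNAs were called higher in 88 of 166 cases in the RiboMinus libraries (median 1.07), against 172 of 621 lncRNAs with another start (27.7%, median 0.34) and 16.5% of the 13905 genes tested in both. Pde3a differed there by -1.15 (adjusted p = 9.95e-07), Srrt by 1.85 (adjusted p = 3.88e-06) and Fut10 by 2.29 (adjusted p = 1.46e-06) over single oocytes. In the sums over identifiers these were -1.19, 1.79 and 2.25 (adjusted p = 0.119, 0.125 and 0.105).

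Messages were also grouped by what happens to them in control oocytes, from libraries outside these 23. Of 13469 genes tested between control eggs and control oocytes after 3 h, 66.3% were called (31.5% higher in eggs, 34.8% lower), and of 14455 tested between adult and day 20 control oocytes, 33.5% (15.8% higher in adults, 17.7% lower). The adult and day 20 oocytes also carry shared identifiers in their titles and were fitted as single oocytes. Of 4681 genes that were lower in control eggs at metaphase II than in control oocytes after 3 h, 451 (9.63%) were higher and 816 (17.4%) lower in Dis3 cKO GV oocytes, with a median of -0.09. Of 4178 genes that were higher in those eggs, 503 were higher and 617 (14.8%) lower, with a median of -0.02. Of 2180 genes that were higher in adult than in day 20 control oocytes, 177 (8.12%) were higher and 385 (17.7%) lower, with a median of -0.10, and of 2338 genes lower in adults, 285 (12.2%) were higher and 292 (12.5%) lower. Of 4415 genes not called between control eggs and oocytes after 3 h, 13.7% were higher and 9.47% lower (median 0.05). Of 8816 not called between adult and day 20 oocytes, 13.4% were higher and 12.9% lower (median -0.005). Shares over all 15099 genes were 14.8% and 12.4%, but these include genes that the control comparisons did not test. With ERCC scaling the medians of the called lists, in the order given, were -0.36, -0.28, -0.36 and -0.25. Those of the uncalled genes were -0.22 and -0.27, against -0.26 for all genes.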

How the data were processed

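Single-oocyte poly(A) libraries were sequenced by the authors, who deposited whole-number read counts per gene (and, in separate tables, per ERCC RNA) for each oocyte. Per the submitters' processing notes, cutadapt 2.5, STAR 2.7.2a, SAMtools 1.9, HTSeq 0.9.1 and the mouse build mm10 (GRCm38) were used; the annotation release and strand setting are not given in the sources used here. Counts of the 23 libraries (4843964 to 10310183 gene counts each) were fitted with edgeR 4.0.16 in R 4.3.3 (TMM scaling, filterByExpr, quasi-likelihood F test, Benjamini-Hochberg threshold 0.05). In a second fit the library size was the summed ERCC count. DESeq2 1.42.0, other scalings, other sets of libraries and a replicate block were alternatives. SE is the log2 difference divided by the square root of F. On simulated data for this comparison (15099 genes) the fit recovered 66 of 100 genes changed 2-fold and 92 of 100 changed 4-fold, with 8 false calls among 166. The simulation changed only 200 genes and drew each library independently, without libraries that stand apart or oocytes that share a female. Its rate of false calls therefore does not carry over to the calls in the real oocytes. Counting intervals cover counting error only.

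Members and gene lists were chosen with earlier results of these data known. Genes are named by rule: the 15 largest increases and decreases among called genes whose groups do not overlap and that reach 5 CPM, the 5 largest lncRNA increases and 3 decreases, and up to 4 called members of each list, with key members besides; 1 gene that the rule gives is not reported here. The divergent class, the pairs whose sequences are printed, the reduced granulosa marker list and the alternatives that leave out libraries that stand apart, or sum neighbouring title numbers or RiboMinus title identifiers, were chosen after seeing the data.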

Additional observations from a re-analysis of the deposited data

Results flagged for a closer look

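Among the genes and library measures of the text, 173 values were checked for a control far from the other 7, and 21 (12.1%) had one; chance gives about 1 in 20. Control 1 was that library in 13 of the 21. It was the highest control for B4galt4 (393 CPM, next 258), Ccnb2 (147, next 114), D030047H15Rik (0.329, the others at 0), Dazl (1322, next 836), Mdm4 (2199, next 1635), Mos (2538, next 1896), Rab18 (114, next 87.8), Rps15a (50.5, next 37.0) and Slc7a11 (639, next 490.5). It was the lowest for Eea1 (156 CPM, next 217), Entpd1 (23.4, next 43.9), Exosc10 (51.9, next 102) and Srrt (12.9, next 27.3). Without control 1, 4051 of 15337 genes were called, 2270 higher and 1781 lower, and 3 of the 138 called genes that the rule and lists gave lost their call (Dis3l, Xrn2 and Ints13).

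The other 8 values belonged to different controls. Control 6 was highest for Ints11 (60.9 CPM) and Pabpc1l (167 CPM) and lowest for Zfp106 (136 CPM). Control 3 was highest for 4930562C15Rik (50.3 CPM), control 7 for 4930564D02Rik (0.349 CPM), control 2 for Gm49254 (1.245 CPM), control 5 for Mrpl9 (148 CPM) and control 8 for Srpk1 (1042 CPM).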

How the results depend on the processing

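The count of called genes, 4119, was 4525 with DESeq2, 4056 with total counts and no TMM factor (2739 higher and 1317 lower, median of all genes 0.09), 5061 with no filter, 3806 with all 6 poly(A) groups in one fit (2358 higher and 1448 lower) and 5699 with TMM-type factors of the ERCC RNAs (1115 higher and 4584 lower). It was 3037 for Dis3 cKO 1 to 8 and 4141 for Dis3 cKO 10 to 16 against the controls. It moved by over 1.5 times to 6736 with ERCC scaling and without Dis3 cKO 16, and to 1417 with counts summed over neighbouring title numbers, which leaves fewer samples; in the RiboMinus comparison 4305 called genes became 6843 with ERCC scaling and 0 with counts summed over the 2 title identifiers of each group, which leaves 2 sums a group. The cause of the ERCC-scaled counts was not tested. Leaving out 1 library gave 3650 to 4446 called genes, a difference in gene counts per ERCC count of -0.45 to -0.34 and a difference in lncRNA share of 0.36 to 0.41 on the log2 scale. Of 138 called genes given by the naming rule and lists, 131 kept the call in all those fits. Ints13 changed sign with ERCC scaling, to -0.0032 without Dis3 cKO 6 and 8 and -0.032 without Dis3 cKO 16, and Upf2 to -0.048 with TMM-type ERCC factors and -0.054 with ERCC scaling without Dis3 cKO 16. Title numbers 1 to 8 are shared by the groups, but deviations of same-numbered oocytes correlated at -0.14 to 0.28 and 2 of 8 controls correlated best with their own number, so they were not taken as pairs. With the replicate block 2785 of 14004 genes were called, against 3037 for the same oocytes without it, and the ratio to ERCC counts differed by -0.53 (exact paired sign-flip permutation test, p = 0.00781, the smallest that 256 sign patterns can give).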
